A study of Mus musculus with 6 samples.

Results

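The genes described here are 34 genes of the unfolded protein response and of the ATF4 stress program, measured by RNA-seq in mouse adult fibroblasts (MAFs). They were taken by name from a table of read counts for 43346 genes. Each of the 34 names matched 1 row, and all 34 were among the 17589 genes with enough reads to be tested. By known role they comprise 7 sensors and regulators, 12 targets of the transcription factor ATF4, 9 chaperones and folding factors of the endoplasmic reticulum (ER) and 6 genes of ER-associated degradation (ERAD). The MAFs were primary cells from ear tissue of adult C57BL6/J females, grown at 3% oxygen, between passages 3 and 8. Senescent cells (n = 3 libraries) were X-irradiated with 20 Gy and cultured for 21 days, and control cells (n = 3 libraries) were sham irradiated. Both groups were given 100 nM dexamethasone, a glucocorticoid, for 2 hours and were collected 12 hours later, so that every value below was measured after a glucocorticoid pulse and at 1 time point. No label ties the replicates to separate animals or cultures, and p-values therefore measure only the spread between these libraries, which may be technical.

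Proteins destined for the cell surface or for secretion are folded in the ER, and fibroblasts, which secrete collagen and other matrix proteins, carry a large load of such clients. When unfolded proteins accumulate, 3 sensors in the ER membrane act: IRE1α (*Ern1*) splices *Xbp1* mRNA, ATF6 is cleaved to release a transcription factor, and PERK (*Eif2ak3*) phosphorylates the translation factor eIF2α. Spliced XBP1 and cleaved ATF6 induce chaperones and ERAD genes, whereas phosphorylated eIF2α lowers general translation and raises translation of ATF4. GCN2 (*Eif2ak4*) phosphorylates the same factor when amino acids are scarce, and ATF4 then induces genes of amino acid synthesis and transport together with *Ddit3*, *Trib3* and *Chac1*. ATF4 is controlled largely at translation, ATF6 by cleavage and XBP1 by splicing, so counts per gene do not measure the activity of any of these factors.

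The promoters of some of these genes carry short sequences by which the arms of the response are recognised. These sequences are shown here because they describe the genes by sequence alone, apart from the read counts. RefSeq promoters (build GRCm38.p6, 250 bases before to 50 after the start) were matched for 29 of the 34 genes. *Derl1*, *Manf*, *Hyou1*, *Atf6* and *Ppp1r15b* had no entry in the table used. The C/EBP-ATF response element, searched as TGATGNAA on both strands, was found in 4 of 12 ATF4 targets, in 1 of 5 ERAD genes and in 0 of 7 chaperones, against 4.51% of all 27025 genes with a promoter. It lies at chr6:7693210-7693269 (minus strand) in *Asns*, at chr2:119351023-119351082 (plus strand) in *Chac1* and at chr19:27216794-27216853 (plus strand) in *Vldlr*. These are the 60-base windows around the match, written in the direction of the gene, with the element or its reverse complement in capitals. *Trib3* holds its match downstream of the start and is not printed.
Asns: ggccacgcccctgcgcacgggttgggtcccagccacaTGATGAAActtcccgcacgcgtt
Chac1: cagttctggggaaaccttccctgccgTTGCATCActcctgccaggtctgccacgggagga
Vldlr: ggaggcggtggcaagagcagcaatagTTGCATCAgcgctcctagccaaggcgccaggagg

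The ER stress response element (ERSE), searched as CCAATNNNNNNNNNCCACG on both strands, was found in 4 of 7 chaperones, in 2 of 5 ERAD genes and in 0 of 12 ATF4 targets, against 0.137% of all genes. It is the element through which ATF6 and XBP1, together with the factor NF-Y, are known to act. The windows below are chr8:84847054-84847113 (minus strand) for *Calr*, chr11:50325779-50325838 (minus) for *Canx*, chr12:17266471-17266530 (plus) for *Pdia6*, chr15:88819500-88819559 (plus) for *Creld2*, chr10:75893222-75893281 (plus) for *Derl3* and chr19:6046512-6046571 (plus) for *Syvn1*, with the match in capitals on either strand.
Calr: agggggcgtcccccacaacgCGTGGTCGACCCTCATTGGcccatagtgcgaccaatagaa
Canx: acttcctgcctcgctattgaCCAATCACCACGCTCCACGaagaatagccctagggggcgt
Pdia6: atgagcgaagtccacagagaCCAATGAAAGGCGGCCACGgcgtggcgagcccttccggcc
Creld2: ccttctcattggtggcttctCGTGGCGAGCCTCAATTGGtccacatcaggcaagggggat
Derl3: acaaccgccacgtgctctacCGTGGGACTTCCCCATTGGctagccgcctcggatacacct
Syvn1: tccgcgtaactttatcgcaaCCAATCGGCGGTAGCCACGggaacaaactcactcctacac

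*Herpud1* carried an element of each kind, a C/EBP-ATF match and an ERSE-II (ATTGGNCCACG, found in 0.0444% of all genes), within 81 bases at chr8:94386312-94386392 (plus strand), both in capitals.
Herpud1: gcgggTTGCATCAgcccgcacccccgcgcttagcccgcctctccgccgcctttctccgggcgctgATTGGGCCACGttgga
In *Ddit3* neither element was in the window. Its promoter did hold an AP-1 match (TGANTCA, in 8.97% of all genes), at chr10:127290543-127290602 (plus strand).
Ddit3: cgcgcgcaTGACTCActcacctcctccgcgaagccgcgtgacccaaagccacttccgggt
AP-1 matches were also present in *Eif2ak3* and *Sel1l*, and the E-box CACGTG, in 8.09% of all genes, was present in *Calr* and *Derl3*. The unfolded protein response element TGACGTGG was in 0 of the 29 promoters and in 0.714% of all genes. A match is a description of these letters and shows no binding, and an absent match says only that the letters are not in this window.

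Libraries held 50288454 to 82229553 counts, and the lowest count of any of the 34 genes in any library was 69 (*Derl3*). Senescent library 3 stood apart from the other senescent libraries. Its squared count differences were 18.5 and 24.6 times those of sampling, against 2.24 for senescent libraries 1 and 2. Of 10 markers of the labelled cell type, fibroblasts, 3 were higher (*Dcn*, *Thy1*, *Lum*) and 5 lower (*Col1a1*, *Col3a1*, *Col1a2*, *Vim*, *Pdgfra*). The other 2 were not called (*Fn1*, *Pdgfrb*), and log2 fold changes of the 10 markers ran from -2.54 to 3.50. The 10 markers summed to 63764 to 65730 CPM in control against 47958 to 53449 CPM in senescent cells, most of it from *Fn1* (45655 and 43858 CPM). Cartilage genes were measured at 7968 to 8555 CPM in control against 710 to 806 CPM in senescent cells, and 17 of the 18 tested were lower. Summed markers of macrophages (8.30 to 9.07 CPM in control, 18.8 to 21.8 CPM in senescent), endothelium (2.55 to 2.93 and 8.29 to 8.85 CPM), keratinocytes (16.5 to 17.1 and 16.4 to 17.4 CPM), skeletal muscle (16.2 to 20.97 and 17.5 to 29.1 CPM) and Schwann cells with melanocytes (47.4 to 50.8 and 39.7 to 43.4 CPM) were low in both groups. The part of other cells in the results below was not tested, and in these bulk samples fewer cells of a type and less RNA per cell cannot be told apart.

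Of the 34 genes, 26 (76.5%) differed between senescent and control cells at an adjusted p under 0.05 (edgeR's quasi-likelihood test, Benjamini-Hochberg over 17589 genes), against 70.3% of all genes tested. Higher levels were found for 8 (23.5%, against 36.2% of all genes) and lower levels for 18 (52.9%, against 34.1%). Of the 26 called genes, 8 also passed an unadjusted p under 0.05 with a log2 fold change beyond 1 in either direction (23.5%, against 30.1%), 3 of them higher (*Ppp1r15a*, *Ddit3*, *Ern1*) and 5 lower (*Ddit4*, *Pdia6*, *Shmt2*, *Derl3*, *Phgdh*). Values of the groups did not overlap for 30 of the 34 (88.2%), against 75.3% of all genes. The median log2 fold change, senescent over control, was -0.22 for the 34 genes and 0.01 for all genes tested. All 34 genes together summed to 9370 to 9650 CPM (counts scaled to a common library total, with TMM factors) in control and 6767 to 7079 CPM in senescent libraries. The 9 chaperones made up 71.5 to 72.6% of this sum in control libraries. In mean CPM, *Calr* (2143 in control, 1127 in senescent), *Pdia6* (1106, 436), *Pdia3* (1641, 999) and *Pdia4* (662, 359) changed most. The sum thus follows mainly these chaperones and does not describe the 34 genes as a set. The share called was thus close to that of the whole table, and the direction leaned to lower values.

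**Figure D1:**
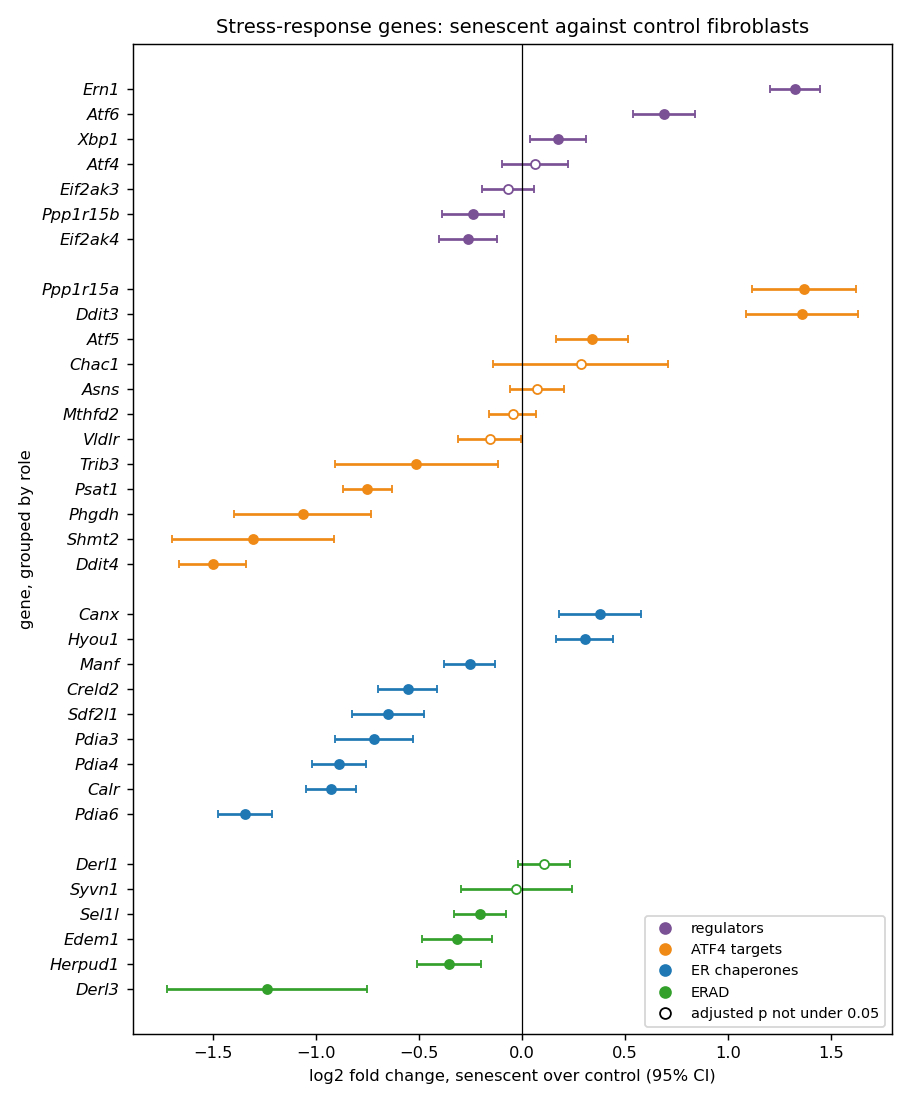
Log2 fold change (senescent over control, x axis) of each of the 34 genes, grouped by role, with its 95% confidence interval from edgeR. Filled points have an adjusted p under 0.05. The called increases, 3 regulators and 3 ATF4 targets among them, lie to the right of 0, and 7 of the 9 chaperones lie to the left.

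Among the sensors and regulators, *Ern1*, *Atf6* and *Xbp1* rose in senescent MAFs, *Eif2ak4* and *Ppp1r15b* fell slightly, and neither *Eif2ak3* nor *Atf4* passed the test. These are 3 higher and 2 lower of 7, against 36.2% higher and 34.1% lower among all genes tested. *Ern1* (ENSMUSG00000020715, chr11:106394650-106487852, minus strand), which encodes the kinase and endoribonuclease IRE1α, was measured at 46.0, 44.3 and 44.3 CPM in control libraries 1 to 3 and 113, 110.3 and 115 CPM in senescent libraries 1 to 3. The senescent values exceeded every control value by a wide margin, a 2.51-fold difference (log2 fold change 1.33, SE 0.05, adjusted p = 3.04e-07). *Atf6* (ENSMUSG00000026663, chr1:170704674-170867771, minus strand) was measured at 72.6, 70.1 and 70.5 CPM in control and at 111, 109.7 and 124 CPM in senescent libraries. Again the groups did not overlap (1.62-fold, log2 fold change 0.69, SE 0.06, adjusted p = 3.79e-05). *Xbp1*, whose mRNA is the substrate of IRE1α, was measured at 184, 176 and 174 CPM in control and at 205, 191 and 208 CPM in senescent libraries. This was a small difference without overlap (log2 fold change 0.18, SE 0.06, adjusted p = 0.0254). The call on *Xbp1* was lost without control library 2 (adjusted p = 0.0972), without control library 3 (0.112), without senescent library 1 (0.0739) and with a term for the replicate number (0.0720), within a range of 0.00227 to 0.112 over 15 alternatives. Spliced and unspliced *Xbp1* share 1 count here, and splicing was not analysed.

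*Atf4* (ENSMUSG00000042406, chr15:80255184-80257540, plus strand) was measured at 233, 228 and 234 CPM in control libraries 1 to 3 and 258, 249 and 220.2 CPM in senescent libraries 1 to 3. Senescent library 3 lay below the control libraries and the other 2 senescent libraries lay above them (log2 fold change 0.06, SE 0.07, adjusted p = 0.438, 95% interval -0.10 to 0.22). Without senescent library 3 the log2 fold change was 0.14 (adjusted p = 0.00271), and with a term for the GC content of the transcripts it was 0.23 (adjusted p = 0.000175), the range over 15 alternatives being 0.000175 to 0.832. *Eif2ak3*, encoding PERK, was measured at 70.2, 66.2 and 66.2 CPM in control and at 63.9, 64.2 and 65.5 CPM in senescent libraries, with all senescent values just below the lowest control value (log2 fold change -0.07, adjusted p = 0.302). Scaled by library size alone its log2 fold change was 0.011, of the other sign. *Eif2ak4*, encoding GCN2, was measured at 42.5, 46.1 and 43.5 CPM in control and at 35.7, 37.4 and 37.1 CPM in senescent libraries and fell (log2 fold change -0.26, adjusted p = 0.0053). *Ppp1r15b*, which encodes the constitutive subunit that directs a phosphatase to eIF2α, was measured at 112, 109 and 109 CPM in control and at 90.0, 89.1 and 101 CPM in senescent libraries and fell slightly (log2 fold change -0.23, adjusted p = 0.012). Scaled by library size alone, this call was lost (adjusted p = 0.0621, range 3.7e-06 to 0.0621 over 15 alternatives).

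Levels per transcript length (RPKM, here CPM per kilobase of the gene length in the table) allow the sensors to be set beside each other. In control cells *Eif2ak3* stood at 12.4 ± 0.430 RPKM (SD, n = 3), *Atf6* at 7.70 ± 0.146, *Eif2ak4* at 5.90 ± 0.253 and *Ern1* at 5.49 ± 0.120. In senescent cells *Ern1* stood highest at 13.8 ± 0.270 RPKM, followed by *Atf6* at 12.4 ± 0.850, *Eif2ak3* at 11.9 ± 0.161 and *Eif2ak4* at 4.92 ± 0.123. *Ern1* therefore moved from the lowest to the highest of these sensors, while *Atf6* and *Eif2ak3* in senescent cells lay within their spread. *Eif2ak4* and *Ern1* in control cells differed by little more than their SDs.

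**Figure D2:**
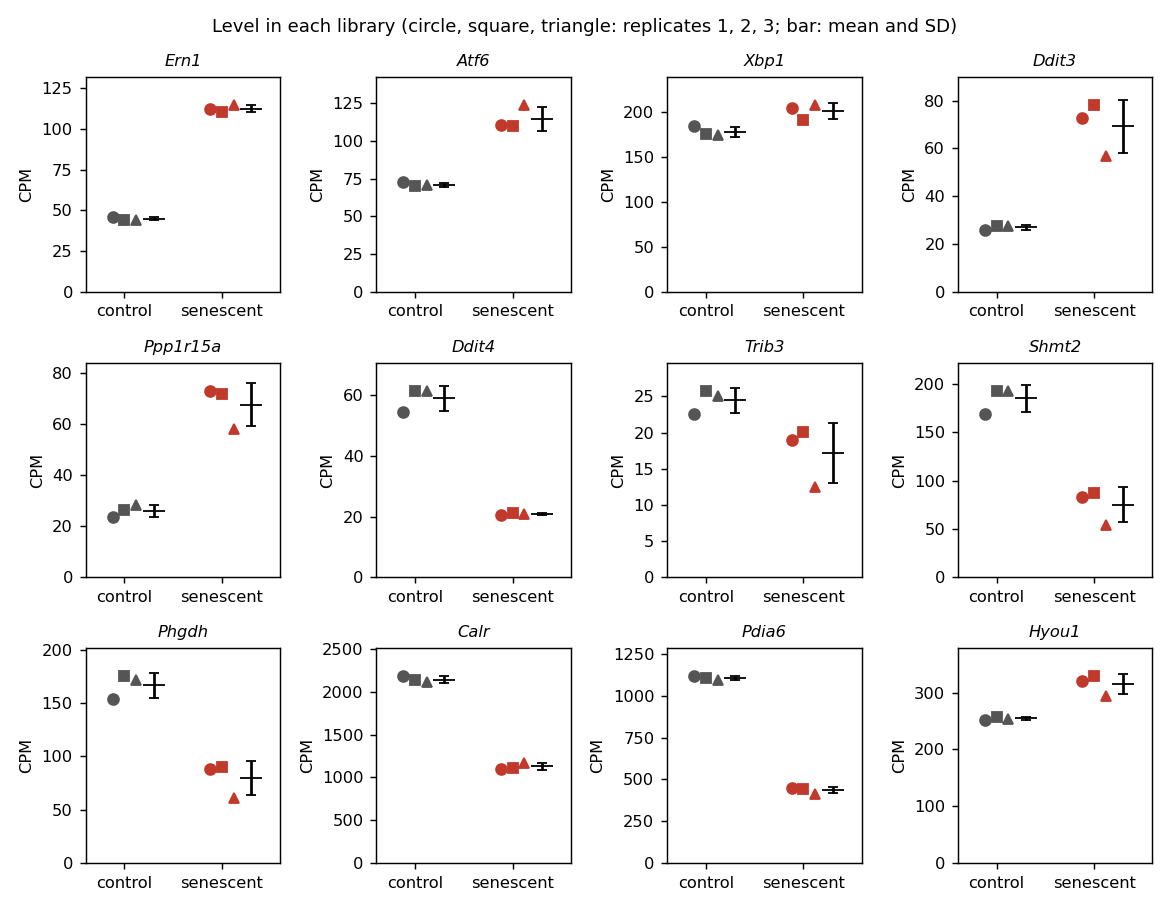
CPM (y axis, from 0) of 12 of the genes in each library of the control and senescent groups, with the mean and SD of 3 libraries beside the points. The groups do not overlap for any of the 12, and senescent replicate 3 (triangle) is the lowest senescent library for *Ddit3*, *Ppp1r15a*, *Trib3*, *Shmt2*, *Phgdh*, *Pdia6* and *Hyou1*.

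Of the 12 ATF4 targets, 3 were higher and 5 lower, against 36.2% higher and 34.1% lower among all genes tested. Both directions were thus present, as in the whole table. *Ppp1r15a*, *Ddit3* and *Atf5* rose, *Ddit4*, *Shmt2*, *Phgdh*, *Psat1* and *Trib3* fell, and *Chac1*, *Asns*, *Mthfd2* and *Vldlr* did not pass the test. Their median log2 fold change was -0.10 with a range from -1.50 to 1.37, so that this group held both the largest increase and the largest decrease of all 34 genes. *Ppp1r15a* (ENSMUSG00000040435, chr7:45522916-45526268, minus strand) encodes GADD34, the inducible counterpart of *Ppp1r15b*, and was measured at 23.7, 26.2 and 28.3 CPM in control libraries 1 to 3 and 72.9, 71.6 and 57.8 CPM in senescent libraries 1 to 3. Every senescent value was more than the highest control value (2.59-fold, log2 fold change 1.37, SE 0.11, adjusted p = 1.47e-05). Per length, the order of these phosphatase subunits turned: *Ppp1r15b* stood at 19.6 ± 0.280 and *Ppp1r15a* at 8.87 ± 0.785 RPKM in control cells, against 16.7 ± 1.18 and 23.0 ± 2.84 RPKM in senescent cells.

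*Ddit3* (ENSMUSG00000025408, chr10:127290774-127296288, plus strand) encodes CHOP, a transcription factor of the late stress response linked to cell death. It was measured at 25.7, 27.6 and 27.6 CPM in control libraries 1 to 3 and 72.7, 78.1 and 56.8 CPM in senescent libraries 1 to 3. The groups were far apart, with senescent library 3 the lowest of its group (2.56-fold, log2 fold change 1.36, SE 0.12, adjusted p = 2.41e-05). *Ddit3* shares 68 of its 1713 exon bases with *Mars* on the opposite strand and 105 with a second gene model of the same name. The libraries were stranded, the strand setting of the counting is not given in the sources used here, and *Mars* was lower in senescent cells (log2 fold change -0.31). *Atf5*, a bZIP factor related to ATF4 that acts in the mitochondrial stress response, was measured at 154, 178 and 171 CPM in control and at 217, 223 and 199 CPM in senescent libraries. It rose 1.27-fold without overlap (log2 fold change 0.34, SE 0.08, adjusted p = 0.00404), and its log2 fold change was 0.67 with a term for GC content, the highest of 15 alternatives, the lowest being 0.28.

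*Trib3*, a pseudokinase induced by ATF4 and CHOP, was measured at 22.5, 25.8 and 25.1 CPM in control and at 19.0, 20.1 and 12.5 CPM in senescent libraries. It fell (log2 fold change -0.51, SE 0.17, adjusted p = 0.0272), and senescent library 3 held the lowest value by far. Without that library the log2 fold change was -0.31, and with the GC term it was -0.28. The call was lost without control library 2 (adjusted p = 0.0827) or control library 3 (0.0751), within a range of 0.000527 to 0.0827 over 15 alternatives. *Chac1*, which degrades glutathione, was measured at 10.9, 13.5 and 13.6 CPM in control libraries 1 to 3 and 17.3, 17.9 and 11.2 CPM in senescent libraries 1 to 3. Senescent libraries 1 and 2 exceeded all control values and senescent library 3 lay among them (log2 fold change 0.29, SE 0.18, adjusted p = 0.194, 95% interval -0.14 to 0.71). Without senescent library 3 *Chac1* passed the test as higher (log2 fold change 0.48, adjusted p = 0.000108), as it did with the GC term (0.50, adjusted p = 0.000345), the range over 15 alternatives being 0.000108 to 0.453.

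*Ddit4* (ENSMUSG00000020108, chr10:59949675-59951770, minus strand) encodes REDD1, an inhibitor of mTORC1 signaling, and is also a known glucocorticoid target. It was measured at 54.2, 61.4 and 61.2 CPM in control libraries 1 to 3 and 20.4, 21.037 and 20.995 CPM in senescent libraries 1 to 3. All 3 senescent libraries were nearly equal and far below control (0.353-fold, log2 fold change -1.50, SE 0.07, adjusted p = 7.88e-07), the largest decrease among the 34 genes. *Vldlr*, a lipoprotein receptor, was measured at 45.1, 42.4 and 42.6 CPM in control and at 38.4, 37.1 and 41.3 CPM in senescent libraries. Its groups did not overlap, yet it did not pass the adjusted threshold (log2 fold change -0.15, SE 0.07, adjusted p = 0.0662). Without senescent library 3 (log2 fold change -0.19, adjusted p = 0.00242) and with the GC term (-0.31, adjusted p = 6.23e-05) *Vldlr* was called lower, and its adjusted p ran up to 0.336 over 15 alternatives.

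Within the ATF4 targets, the 5 enzymes of amino acid and one-carbon metabolism summed to 852 to 887 CPM in control against 524 to 571 CPM in senescent cells. None of the 5 was called higher and 3 were called lower, with a median log2 fold change of -0.75. Of the other 7 targets, 3 were higher and 2 lower, against 36.2% higher and 34.1% lower among all genes tested. This split of the ATF4 targets was not among the planned groups and was not tested, and 2 of the 5 enzymes were not called. *Phgdh*, *Psat1* and *Shmt2* encode enzymes of serine synthesis from glycolytic intermediates and of serine-to-glycine conversion in mitochondria. *Shmt2* (ENSMUSG00000025403, chr10:127517123-127522444, minus strand) was measured at 169, 193 and 193 CPM in control libraries 1 to 3 and 83.4, 87.2 and 54.2 CPM in senescent libraries 1 to 3. *Phgdh* (ENSMUSG00000053398, chr3:98313170-98339990, minus strand), the first enzyme of serine synthesis, was measured at 153, 175 and 171 CPM in control and at 88.3, 89.8 and 61.1 CPM in senescent libraries. *Psat1* (ENSMUSG00000024640, chr19:15904678-15947337, minus strand), the second enzyme, was measured at 318, 315 and 309 CPM in control and at 185, 185 and 191 CPM in senescent libraries.

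For all 3 enzymes the highest senescent value was far below the lowest control value. The decreases were -1.30 for *Shmt2* (SE 0.17, adjusted p = 0.000242), -1.06 for *Phgdh* (SE 0.14, adjusted p = 0.0003) and -0.75 for *Psat1* (SE 0.05, adjusted p = 5.4e-06) on the log2 scale. Senescent library 3 was the lowest senescent library for *Shmt2* and *Phgdh* and not for *Psat1*. *Asns*, asparagine synthetase, was measured at 137, 129.7 and 131 CPM in control and at 136, 136 and 146 CPM in senescent libraries, and the groups overlapped (log2 fold change 0.07, SE 0.06, adjusted p = 0.277). It was called higher only when scaled by library size alone (adjusted p = 0.0472, range up to 0.915 over 15 alternatives). *Mthfd2*, a mitochondrial folate enzyme, was measured at 74.2, 74.4 and 73.9 CPM in control and at 70.8, 72.2 and 72.7 CPM in senescent libraries. Its values did not overlap and differed by little (95% interval -0.16 to 0.07, adjusted p = 0.453), and the sign was positive under scaling by library size alone (0.034) and when 10 or more counts were required in each library (0.0047). Neither *Asns*, which holds a C/EBP-ATF element just before its start, nor *Mthfd2* followed the decreases of *Phgdh*, *Psat1* and *Shmt2*. Per length, *Psat1* (73.8 RPKM), *Phgdh* (67.0 RPKM) and *Shmt2* (80.2 RPKM) all exceeded *Asns* (48.5 RPKM) in control cells, and all 3 were below it in senescent cells (43.9, 32.1 and 32.5 against 51.0 RPKM).

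Most of the ER chaperones fell. Of 9 genes, 7 were lower and 2 higher, all 9 without overlap between the groups, and the median log2 fold change was -0.65. Among all genes tested, 34.1% were lower, 36.2% higher and 75.3% without overlap. Their sum lay between 6704 and 7007 CPM in control and between 4262 and 4671 CPM in senescent libraries. Their share of the summed level of the 34 genes lay between 71.5 and 72.6% in control and between 63.0 and 66.0% in senescent libraries. *Pdia6* (ENSMUSG00000020571, chr12:17266545-17284770, plus strand), a protein disulfide isomerase that also restrains IRE1α signaling, was measured at 1117, 1105 and 1097 CPM in control libraries 1 to 3 and 450.4, 444 and 413 CPM in senescent libraries 1 to 3. It fell to 0.394 of its control level, with no senescent value near a control value (log2 fold change -1.34, SE 0.06, adjusted p = 3.88e-07). *Calr* (ENSMUSG00000003814, chr8:84841850-84846934, minus strand) encodes calreticulin, the soluble lectin chaperone that holds glycoproteins in the ER, and was measured at 2182, 2138 and 2109.8 CPM in control libraries 1 to 3 and 1103, 1107 and 1171 CPM in senescent libraries 1 to 3. The senescent level was 0.526 of control, again with a wide gap (log2 fold change -0.93, SE 0.05, adjusted p = 2.01e-06).

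Further disulfide isomerase and lectin chaperone genes separated by direction. *Pdia4* was measured at 683, 652 and 653 CPM in control and at 352, 348 and 376 CPM in senescent libraries (log2 fold change -0.89, adjusted p = 4.09e-06). *Pdia3*, the isomerase that works on glycoproteins bound by calreticulin and calnexin, was measured at 1732, 1601 and 1590.1 CPM in control and at 955, 928 and 1114 CPM in senescent libraries (log2 fold change -0.72, adjusted p = 0.000113). Both fell without overlap. *Canx* (ENSMUSG00000020368, chr11:50293961-50325673, minus strand), encoding calnexin, the membrane-bound counterpart of calreticulin, was measured at 771, 722 and 722 CPM in control and at 895, 897 and 1088 CPM in senescent libraries. *Canx* rose, with senescent library 3 above the other senescent libraries (log2 fold change 0.38, SE 0.09, adjusted p = 0.00473), and with a term for GC content its log2 fold change was 0.17. The lectin chaperones thus moved in opposite directions, *Calr* from 744 ± 12.6 to 391 ± 13.2 RPKM and *Canx* from 157 ± 6.06 to 205 ± 23.6 RPKM. *Calr* and *Canx* both carry an ERSE in the promoters shown above.

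Of the remaining chaperone genes, *Hyou1*, the nucleotide exchange factor GRP170, was the other that rose. It was measured at 252, 258 and 253 CPM in control and at 319.9, 329 and 295 CPM in senescent libraries, without overlap (log2 fold change 0.31, SE 0.06, adjusted p = 0.00206). *Sdf2l1*, a component of the ER chaperone complex, was measured at 31.3, 32.1 and 32.2 CPM in control and at 22.0, 20.1 and 19.0 CPM in senescent libraries and fell (log2 fold change -0.65, adjusted p = 0.000125). *Creld2*, an ER-stress-inducible protein, was measured at 68.7, 73.2 and 75.7 CPM in control and at 50.4, 50.4 and 47.5 CPM in senescent libraries and fell (log2 fold change -0.55, adjusted p = 9.69e-05). *Manf*, a secreted ER-stress-inducible protein, showed the smallest decrease of the group, at 169.7, 171 and 171 CPM in control and at 142, 139 and 149 CPM in senescent libraries (log2 fold change -0.25, adjusted p = 0.00334). *Manf* shares 146 exon bases with *Dcaf1* and 166 with an antisense gene on the opposite strand, of 3524. Genes of secreted matrix proteins moved both ways beside the chaperones. *Col1a1* (4435 CPM in control, 763 CPM in senescent cells), *Col1a2* (5612 and 1531 CPM), *Col3a1* (3896 and 971 CPM) and most cartilage genes given above were lower. From lower control levels, *Dcn* (56.6 and 643 CPM) and *Lum* (124 and 223 CPM) were higher, and *Fn1* was not called. Their part in the chaperone levels was not tested.

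**Figure D3:**
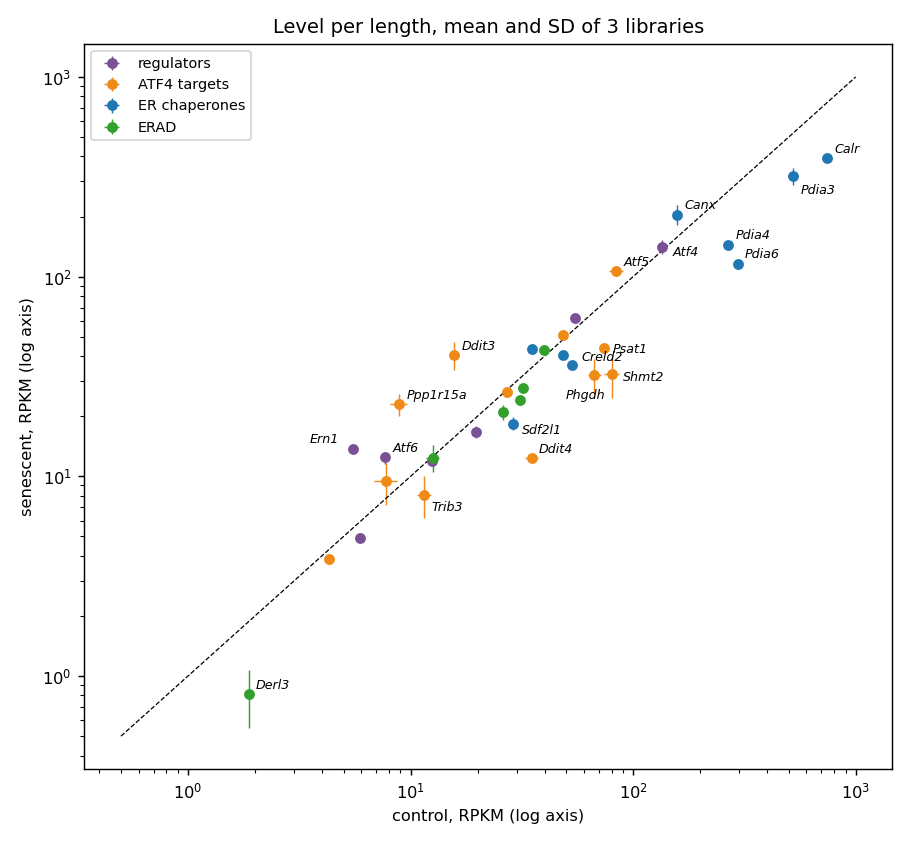
Mean level per length (RPKM, log axes) of the 34 genes in control (x axis) and senescent cells (y axis), with SD bars over 3 libraries and a dashed line of equal level. Names are given for genes far from the line or of high level. *Calr*, *Pdia3*, *Pdia6* and *Pdia4* hold the highest control levels and lie below the line, while *Ern1*, *Ddit3* and *Ppp1r15a* lie above it.

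ERAD, by which misfolded proteins are drawn back to the cytosol and degraded, was represented by 6 genes. Of these, 4 fell, none rose and 2 did not pass the test, against 34.1% lower and 36.2% higher among all genes tested. Their median log2 fold change was -0.26, and their summed level was 678 to 695 CPM in control and 608 to 616 CPM in senescent libraries. *Herpud1*, the scaffold whose promoter holds both elements printed above, was measured at 69.1, 71.3 and 75.9 CPM in control and at 58.6, 58.3 and 52.6 CPM in senescent libraries. It fell by little but without overlap (log2 fold change -0.35, SE 0.07, adjusted p = 0.00198). *Edem1*, which marks glycoproteins for disposal, was measured at 159, 149 and 149 CPM in control and at 116, 117 and 135 CPM in senescent libraries and fell (log2 fold change -0.31, adjusted p = 0.00549). *Sel1l*, the adaptor of the retrotranslocation complex, was measured at 283, 273 and 266 CPM in control and at 232, 234 and 247 CPM in senescent libraries and fell (log2 fold change -0.20, adjusted p = 0.0113), a call that was lost under scaling by library size alone (adjusted p = 0.0794, range 6.37e-06 to 0.0794 over 15 alternatives). *Derl3* (ENSMUSG00000009092, chr10:75893398-75895941, plus strand), a derlin of the retrotranslocation channel, had the lowest level per length of all 34 genes. It was measured at 2.55, 2.49 and 2.47 CPM in control and at 1.48, 0.959 and 0.818 CPM in senescent libraries. The senescent libraries varied among themselves by more than the control libraries and all lay below them (0.425-fold, log2 fold change -1.24, SE 0.21, adjusted p = 0.00101).

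*Syvn1*, the ubiquitin ligase HRD1 that binds SEL1L, was measured at 55.3, 63.0 and 61.9 CPM in control libraries 1 to 3 and 63.4, 65.2 and 48.5 CPM in senescent libraries 1 to 3. Senescent library 3 was the lowest of the 6 and senescent libraries 1 and 2 the highest (log2 fold change -0.03, SE 0.12, adjusted p = 0.855, 95% interval -0.30 to 0.24). The sign turned positive without senescent library 3 (log2 fold change 0.11, adjusted p = 0.0766) and without control library 2 (0.0084, adjusted p = 0.963), under scaling by library size alone (0.052) and with 10 or more counts required (0.024), and with the GC term *Syvn1* was called higher (0.17, adjusted p = 0.00174), so no direction is given for it. *Derl1*, the broadly expressed derlin, was measured at 126, 127 and 123 CPM in control and at 136, 139 and 130.2 CPM in senescent libraries. All senescent values lay above the control values (log2 fold change 0.11, adjusted p = 0.105), and it was called higher without senescent library 3 (0.14, adjusted p = 0.00212), under scaling by library size alone (0.19, adjusted p = 0.0152) and with 10 or more counts required in each library (0.16, adjusted p = 0.0295), the range over 15 alternatives reaching 0.308.

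The contrast between ATF4 targets and ER genes was described by medians and by the mean level of each group in each library. The median log2 fold change was -0.10 for the 12 ATF4 targets and -0.35 for the 15 chaperone and ERAD genes, a difference of 0.25. The median of the ATF4 targets was -0.022 under scaling by library size alone, -0.051 with 10 or more counts required and -0.18 with the GC term, while the difference stayed between 0.22 and 0.30 over the 15 alternatives. The ATF4 minus ER level varied between libraries of a group with an SD of 0.105. Relative to the mean of the 6 libraries, on the scale log2(CPM + 0.5), the chaperones averaged 0.27, 0.25 and 0.25 in control libraries and -0.26, -0.28 and -0.23 in senescent libraries. ERAD genes averaged 0.14, 0.15 and 0.15 in control and -0.08, -0.13 and -0.22 in senescent libraries. The groups were separate for both. ATF4 targets averaged 0.01, 0.12 and 0.12 in control and -0.01, 0.01 and -0.25 in senescent libraries, and here the groups overlapped. The mean of this group is taken over genes that rose and genes that fell. Regulators averaged -0.10, -0.13 and -0.13 in control and 0.11, 0.10 and 0.15 in senescent libraries, without overlap. Only 3 of the 7 were called higher and 2 were called lower, and the median log2 fold change of the 7 was 0.06. The regulator mean thus follows mainly *Ern1* (log2 fold change 1.33) and *Atf6* (0.69) and does not describe the 7 as a set. No test was made over the groups, whose members had been selected with results of these data known.

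**Figure D4:**
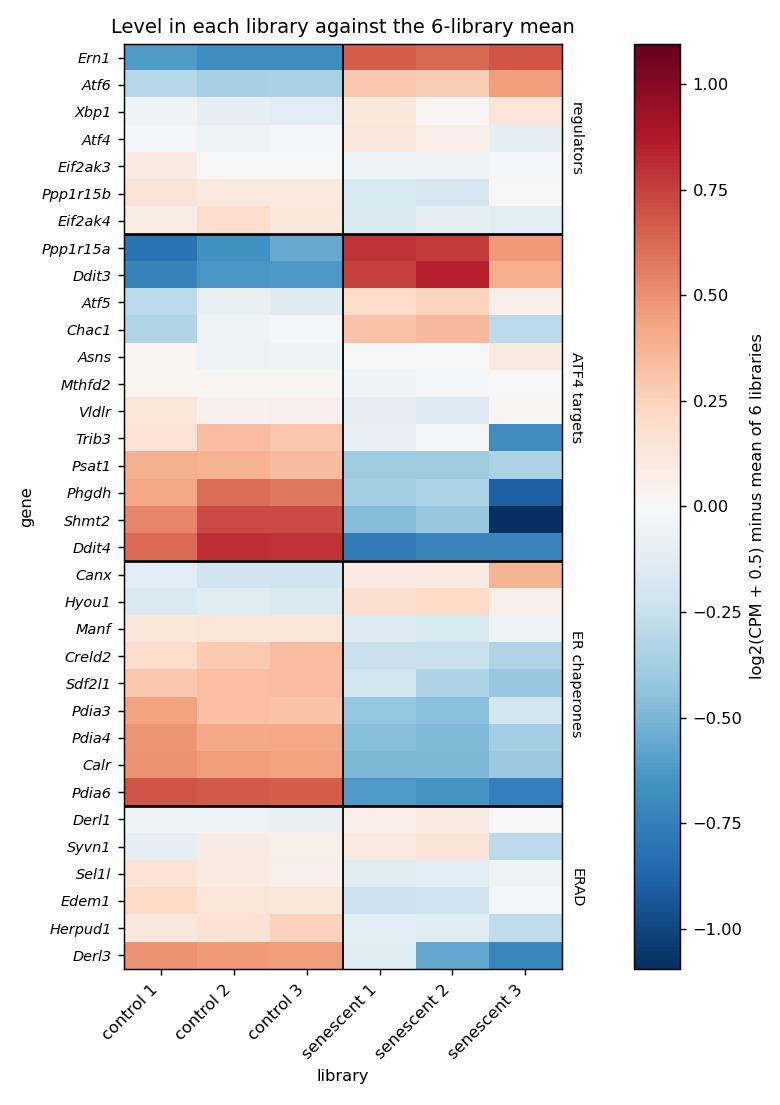
Deviation of each gene in each library from its mean over the 6 libraries (color, log2(CPM + 0.5)), ordered by role and by fold change. Chaperones and ERAD genes are mostly red in control and blue in senescent libraries, ATF4 targets run from blue-to-red at the top to red-to-blue at the bottom, and senescent library 3 is darker blue than its group for *Shmt2*, *Phgdh* and *Trib3*.

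Direction was then set beside the promoter elements shown above, as counts without a test. Of the 5 genes with a C/EBP-ATF match, *Herpud1* and *Trib3* fell and *Asns*, *Chac1* and *Vldlr* were not called, and none was called higher. The ATF4 targets that rose, *Ppp1r15a*, *Ddit3* and *Atf5*, held no such match in the window, and neither did *Ddit4*, *Shmt2*, *Phgdh* and *Psat1*, which fell. Of the 6 genes with an ERSE, *Calr*, *Pdia6*, *Creld2* and *Derl3* fell, *Canx* rose and *Syvn1* was not called. Among all genes tested, 36.2% were higher and 34.1% lower, and counts of 5 and 6 genes are too few to be set apart from these shares.

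Other genes of the same pathways were counted from lists of 88 genes, of which 87 were tested. Of these, 31 were higher, 30 lower and 26 not called, with a median log2 fold change of 0.01. The shares called (70.1%), higher (35.6%) and lower (34.5%) were near those of all genes tested (70.3, 36.2 and 34.1%). Among 24 further genes of the ATF4 program, 9 rose and 8 fell (median -0.04). *Atf3*, a stress-induced bZIP factor, was measured at 0.694 ± 0.0445 CPM in control and at 10.1 ± 0.454 CPM in senescent cells (log2 fold change 3.86, adjusted p = 5.53e-08). *Slc7a11*, the cystine transporter subunit, was measured at 4.65 ± 0.309 CPM in control and at 45.2 ± 5.79 CPM in senescent cells (log2 fold change 3.28, adjusted p = 1.83e-07). Together with *Nupr1*, a stress-induced chromatin protein (log2 fold change 1.58), these were the largest increases of that list with at least 100 counts on average. Its largest decreases were those of *Pycr1* of proline synthesis (-1.90), mitochondrial *Pck2* (-1.82) and the folate enzyme *Aldh1l2* (-1.54). The cytosolic tRNA synthetases were mixed, 5 higher and 5 lower of 14 (median 0.03). *Rars* (0.88), *Nars* (0.52) and *Wars* (0.50) led the increases, and *Vars* (-0.62), *Mars* (-0.31) and *Aars* (-0.23) the decreases.

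Of 18 further ER folding genes, 3 rose and 12 fell (median -0.32). The chaperone BiP (*Hspa5*), the classical readout of ER stress, was measured at 1423 ± 54.0 CPM in control and at 1529 ± 119 CPM in senescent cells and did not pass the test (log2 fold change 0.10, adjusted p = 0.217), with overlap between the groups. GRP94 (*Hsp90b1*) was measured at 2293 ± 119 CPM in control and at 1299 ± 115 CPM in senescent cells and fell (log2 fold change -0.82, adjusted p = 3.85e-05). *P4hb* (-1.15), a subunit of the collagen prolyl hydroxylase as well as a disulfide isomerase, *Ppib* (-1.10), a prolyl isomerase of collagen folding, and *Erp29* (-1.01) showed the largest decreases. *Dnajb9*, a BiP co-chaperone, was measured at 31.9 ± 1.09 CPM in control and at 94.5 ± 22.1 CPM in senescent cells and rose (log2 fold change 1.57, adjusted p = 4.4e-05). Its senescent libraries 1 to 3 held 80.3, 83.3 and 120 CPM, library 3 being the highest. The oxidases *Ero1l* (1.32) and *Ero1lb* (0.55) were the other genes that rose.

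Of 17 further genes of the ERAD machinery, 10 rose and 2 fell (median 0.26), led by *Herpud2* (0.70), *Ufd1l* (0.69) and *Ube2g2* (0.62), while *Edem2* (-0.80) and *Os9* (-0.47) fell. The 6 ERAD genes described above, of which 4 fell and none rose, thus differed in counts from this wider list, and that difference was not tested. Of 14 further sensors, eIF2 and bZIP genes tested, 4 rose and 3 fell (median 0.08). *Eif2b3* (1.37), *Eif2s1* (0.55), which encodes eIF2α, and the ATF6-cleaving protease *Mbtps2* (0.43) led the increases. *Mbtps1* (-0.59), the partner protease, *Atf6b* (-0.56) and *Creb3l2* (-0.15) fell.

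The deviation of senescent library 3 followed GC content (the percentage of G and C in the longest annotated transcript). Over the 34 genes, the difference between this library and the mean of senescent libraries 1 and 2 had r = -0.70 with GC content, and over 17425 genes r = -0.74, a description across genes that share the same libraries. The deviation ran from -0.65 for *Shmt2* (57.4% GC) to 0.28 for *Canx* (42.2% GC). The lowest deviations, of *Shmt2*, *Trib3*, *Chac1* and *Phgdh*, belonged to genes between 57.2 and 58.2% GC, with exceptions in both directions. *Ddit4* (57.9% GC) deviated by 0.017 and *Atf5*, the highest in GC content (61.7%), by -0.15, whereas *Ddit3* deviated by -0.41 at 45.6% GC. Control library 1 showed a relation of the same sign (r = -0.75 over the 34 genes, -0.41 over all), with deviations from -0.30 to 0.12.

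**Figure D5:**
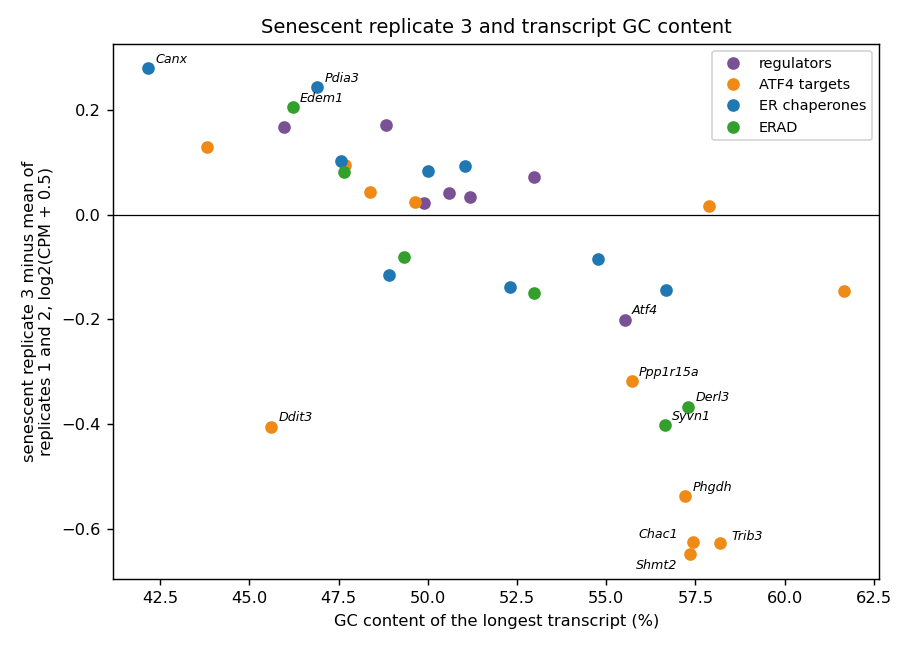
Difference between senescent replicate 3 and the mean of senescent replicates 1 and 2 (y axis, log2(CPM + 0.5)) against GC content of the longest transcript (x axis, percent) for the 34 genes, colored by role. The points fall from 0.28 (*Canx*) at low GC to -0.65 (*Shmt2*) at high GC, *Ddit3* lies below the others of low GC content, and *Ddit4* and *Atf5* lie above most others of high GC content.

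Over the whole table, 13695 of 17779 genes tested were called without senescent library 3, against 12365 of 17589 with it. Of the 34 genes, 30 were then called, 11 higher and 19 lower. The added calls were *Atf4* and *Chac1* (higher), *Vldlr* (lower) and *Derl1* (higher), which gives 4 higher and 2 lower of the 7 regulators, 4 and 6 of the 12 ATF4 targets, 2 and 7 of the 9 chaperones and 1 and 4 of the 6 ERAD genes. The decreases of *Shmt2* (-1.11) and *Phgdh* (-0.90) were then smaller, and *Phgdh* no longer reached a log2 fold change of 1 in size. With a term for GC content, 30 of the 34 were also called, with *Syvn1* in place of *Derl1* among the additions. The median of the chaperones was then -0.44. Over the whole table, 13541 of 17425 genes tested were called with the GC term. That term also takes out GC-related differences between the groups, so it is not the same correction as leaving out a library. Counts of chaperones in each direction were the same with and without senescent library 3.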

How the data were processed

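RNA-seq libraries of 3 control and 3 senescent MAF samples were grouped by their labels. The authors ran their MAPRSeq pipeline, in which STAR aligned read pairs to mm10 and Subread counted them per gene, and the deposited values are these raw counts. Strand and multi-mapping settings of the counting are not given in the sources used here. From these counts, genes were kept by filterByExpr (17589 of 43346), scaled by TMM and tested with edgeR 4.0.16 in R 4.3.3 (robust quasi-likelihood test, two-sided, group as the only term, Benjamini-Hochberg over 17589 genes), a gene being called at an adjusted p under 0.05. The threshold of an unadjusted p under 0.05 and a log2 fold change beyond 1 follows the study's methods. CPM use TMM-scaled totals of tested genes, and RPKM the gene lengths in the table. SE is the log2 fold change over the square root of F, and intervals are 95%.

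The 34 genes and all lists were chosen with earlier results of these data known. All 34 are named. From the other lists, *Hspa5*, *Hsp90b1*, *Dnajb9*, *Atf3* and, per list and direction, the 3 called genes with a mean count of at least 100 and the largest fold change are named. The fibroblast markers whose levels are given were picked from that list after their values had been seen. Alternatives were RLE scaling, library size alone, no filter, at least 10 counts in every library, DESeq2 1.42.0, edgeR's exact test, a replicate term and each library left out. Chosen after seeing the data were a GC term per library (lowess, span 0.3), alone and with the replicate term. The GC term was fitted to each library's deviation from the mean of all 6 libraries. It therefore also takes out GC-related differences between senescent and control cells. Depth was 50288454 to 82229553 counts, without molecular identifiers, so it bounds counting error only. Same-numbered libraries had correlated deviations of -0.37, 0.29 and -0.26, and the numbers were not taken to pair the samples. GC content and exon overlaps were read from GENCODE M21 gene models, built on the same assembly as mm10.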

Additional observations from a re-analysis of the deposited data

How the results depend on the processing

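Over 15 alternatives, 22 of the 34 genes kept their direction and their side of the threshold, and 22 of the 26 called genes kept their call. Of the 34, 24 to 30 were called with each library left out, 30 with the GC term and 25 with the replicate term. Only *Xbp1* was lost under the replicate term, so pairing by number changed no other call. Over the whole table, 12365 genes were called in the main test and 11214 to 13695 with each library left out. The GC term gave 13541 calls and the replicate term 11624. Signs turned for *Eif2ak3* (0.011) and *Mthfd2* (0.034) under library size alone and for *Mthfd2* under at least 10 counts (0.0047), and for *Syvn1* under library size alone (0.052), at least 10 counts (0.024), the GC term (0.17), the GC term with the replicate block (0.17), without control replicate 2 (0.0084) and without senescent replicate 3 (0.11), its lowest value with a library left out being -0.095 (without senescent replicate 2). Library size alone moved the median of all genes by 0.0776, at least 10 counts by 0.0485, RLE scaling by 0.0201 and DESeq2 by 0.0202. Under each of these settings the median of every role group moved in the same direction. The GC term moved the median of all genes by -0.0263. The median of the ER chaperones was -0.63 under RLE scaling, -0.57 under library size alone, -0.60 with at least 10 counts, -0.63 with DESeq2, -0.44 with the GC term and -0.44 with the GC term and the replicate block, and -0.68 to -0.59 with each library left out. Chaperones with ERAD genes gave -0.33, -0.27, -0.30, -0.33, -0.40 and -0.40 under the same settings and -0.39 to -0.34 with each library left out. The ATF4 target median was -0.022 under library size alone, -0.051 with at least 10 counts and -0.18 with the GC term. The ERAD median was -0.18 under library size alone. The regulators' median was 0.14 under library size alone, 0.11 with at least 10 counts, 0.23 with the GC term, 0.23 with the GC term and replicate block, and 0.020 to 0.14 with each library left out. With at least 10 counts in every library, 3483 genes passed the p and fold threshold against 5300, of 15205 and 17589 tested. Apart from the smaller number of genes under that filter, the cause of these shifts was not tested.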
